A study of Rattus norvegicus with 18 samples.

Results

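Genes of the 2 cell types that build blood vessels were examined in the rat 9L glioma model: 42 genes that mark endothelial cells, which line the vessels, or mural cells, the pericytes and smooth muscle cells that surround them. The genes were taken from a list by symbol, and a gene was measured here where a probe set (the group of probes that reads one transcript) carries that symbol alone. This left 34 genes, 20 endothelial and 14 mural, out of 14324 genes so annotated on the array. Only Abcc9 had more than 1 probe set, and its brighter one (by mean over the 18 arrays) was used. Pecam1, Kdr, Eng, Ptprb, Vwf, Mmrn2, Ednra and Acta2 were not analysed here.

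The samples were 3 tumours and 12 cultures of 9L, a rat gliosarcoma cell line. Tumours were grown in male Fischer 344 rats, labelled as 6 weeks old, by tying pieces of serially passaged 9L tumour onto the epigastric artery and vein, so they grew outside the brain and all hold host cells beside 9L cells. From each tumour, a hypoxic region (positive for EF5, a nitroimidazole that binds in cells at low oxygen) and a normoxic region (EF5-negative) were taken by laser capture, the cutting of chosen areas from a section. Cultures were kept at 0.2% or at about 20% oxygen for 6 h or 16 h, with 3 arrays in each of the 4 groups, and hold 9L cells alone. Levels are log2 signals of Affymetrix Rat Gene 1.0 ST arrays, and a difference of 1 is a doubling of signal. Nothing in the labels ties the 3 cultures of a group to separate experiments, and their p-values reflect a spread that may be technical. The number of arrays limits the precision.

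Endothelial cells hold together through adherens and tight junctions (Cdh5, Cldn5, Esam) and take growth signals through receptors for VEGF (Flt1, Flt4) and for angiopoietins (Tek, with its relative Tie1). Their identity is kept by transcription factors of the ETS family (Erg, Ets1) and the SoxF group (Sox7, Sox17, Sox18). Pericytes are drawn to vessels by PDGF-B through Pdgfrb and kept there in part by Notch3, and smooth muscle cells add contractile proteins such as Myh11, Cnn1 and Tagln. In tumours, vessels are often leaky and unevenly covered by pericytes, and low oxygen raises VEGF, which makes these genes a common readout of the vasculature.

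The arrays have no detection call, so the 59 olfactory receptor probe sets, a family not expected in these cells, served as a floor: their 95th percentile on each array. It lay at 6.17 to 6.82 on the tumour arrays and at 5.57 to 6.20 on the culture arrays. The median over all 27363 probe sets was likewise higher on tumour arrays (6.36 to 6.50) than on culture arrays (6.02 to 6.19), so the floor lay near it. The median of the olfactory receptors was lower, at 4.22 to 4.64 on tumour arrays and 3.92 to 4.31 on culture arrays. A level below the floor can therefore still exceed most olfactory receptors. The normoxic array of tumour 3 stood apart: it correlated at 0.941 with the mean of the normoxic cultures, against 0.865 to 0.892 for the other 5 tumour arrays, and its values had an SD of 1.92 over probe sets, against 1.76 to 1.79. Of the glial and neural stem markers, Sox2, Vim and Cd44 lay above the floor on all 18 arrays, while Gfap and S100b lay below it on all 18. The 4 genes chosen as a check of hypoxia (Vegfa, Slc2a1, Car9, Bnip3) were higher in the hypoxic region of all 3 tumours, by a median of 1.92, with a smallest adjusted p of 0.141 in the fit of the 6 tumour arrays. Vegfa and Car9 passed with all 18 arrays and the pairs as block (limma adjusted p = 0.000847 and 0.000843) and without tumour 1 (0.00503 and 0.000417). Slc2a1 and Bnip3 were not read in these other fits. With all 18 arrays, cultures share in the estimate of spread and vary less than tumours, so that fit can understate the spread of tumours.

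9L cells alone gave a signal for 8 of the 34 genes, counted as those above the floor on all 12 culture arrays. They were the endothelial genes Flt4, Egfl7, Nos3 and Ets1 and the mural genes Pdgfrb, Mcam, Cspg4 and Des. Pdgfrb, the PDGF-B receptor, ranged over 7.43 to 8.85 in tumours and 7.15 to 8.34 in cultures, and Ets1, an ETS factor also active outside endothelium, over 7.46 to 8.44 in tumours and 7.66 to 8.09 in cultures. They had the highest mean levels of the 34 genes. For both, the tumour and culture ranges overlap, and signal from 9L cells and from vessel cells in the tumours cannot be told apart. Flt4 (receptor of VEGF-C) lay at 6.51 to 7.15 in cultures, Mcam (an adhesion molecule of pericytes and endothelium) at 6.59 to 7.10, Cspg4 (a pericyte surface proteoglycan) at 6.39 to 7.39, Egfl7 (a matrix protein secreted by endothelium) at 6.43 to 7.38, Nos3 (endothelial nitric oxide synthase) at 6.31 to 6.68 and Des (desmin, a muscle intermediate filament) at 6.07 to 7.70. With the 99th percentile of the olfactory receptors as the floor, 4 of the 8 remained: Flt4, Ets1, Pdgfrb and Mcam. The shares of all probe sets above or below the floor are not given here. Counts of these genes by the floor thus cannot be called high or low.

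Another 16 genes, 11 endothelial and 5 mural, stayed below the floor on all 12 culture arrays: Cldn5, Icam2, Emcn, Tek, Tie1, Robo4, Calcrl, Plvap, Erg, Sox17, Sox18, Rgs5, Notch3, Kcnj8, Abcc9 and Anpep. The other 10, namely Cdh5, Esam, Flt1, Ramp2, Sox7, Heyl, Myh11, Tagln, Cnn1 and Lmod1, were above it on some culture arrays, from 2 of 12 for Cnn1 to 11 of 12 for Tagln. Levels in tumour tissue were read in the same way. Of the 34 genes, 6 lay above the floor on all 6 tumour arrays (Flt4, Egfl7, Nos3, Ets1, Pdgfrb, Mcam, all of them above it in cultures too) and 11 on none (Emcn, Tek, Tie1, Robo4, Calcrl, Ramp2, Erg, Sox17, Sox18, Abcc9, Myh11). Cdh5 (VE-cadherin), Esam (an adhesion molecule of endothelial junctions), Tagln (transgelin) and Cspg4 were above the floor on 5 of 6 tumour arrays, and Kcnj8 and Cnn1 on 4.

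**Figure D1:**
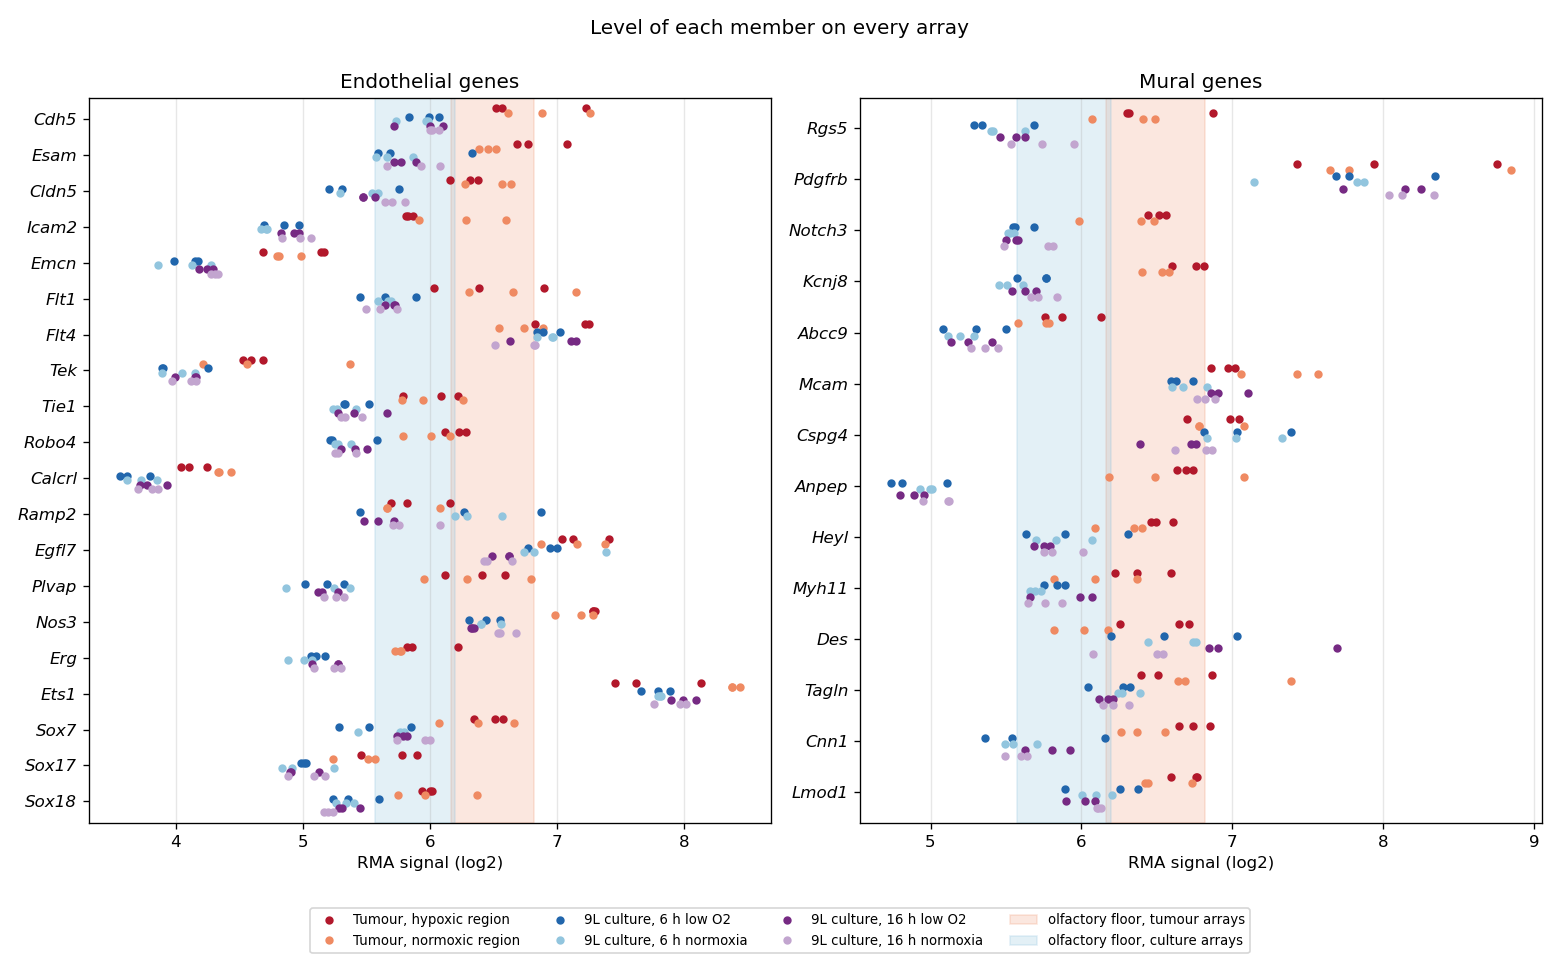
Log2 signal of each of the 34 genes (rows) on every array (points, coloured by group), with endothelial genes on the left and mural genes on the right. Shaded bands span the olfactory receptor floor over the 6 tumour arrays (6.17 to 6.82) and the 12 culture arrays (5.57 to 6.20); Pdgfrb and Ets1 lie above both bands on every array, and Calcrl, Emcn and Tek lie below both on every array.

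Setting tumour tissue against cultures asks which vascular genes carry signal that 9L cells alone do not give. In normoxic regions against normoxic cultures (the mean of the 6 h and 16 h groups), 29 of the 34 genes were higher (85.3%), 1 was lower and 4 did not pass limma's test (adjusted p at most 0.05 over all 27363 probe sets). Of all probe sets, 43.6% were higher and 20.7% lower in this comparison. In hypoxic regions against hypoxic cultures, which use other arrays of the same tumours, 27 of 34 were higher (79.4%) and none lower, against 53.5% higher and 22.5% lower among all probe sets. With separate weights for the tumour and the culture arrays, whose spread differs, 26 were higher and none lower in normoxia, and 27 higher and none lower in hypoxia. Without the normoxic array of tumour 3, 29 were higher and 1 lower in normoxia. In hypoxia the median difference was 0.70 over the 34 genes, 0.37 over all probe sets and 0.53 over the olfactory receptors, and in normoxia it was 0.65, 0.24 and 0.29 over the same sets. The olfactory receptors themselves were called higher in 31 of 59 cases in normoxia and 47 of 59 in hypoxia, so a call of higher is common here for dim probe sets. Of the 34 genes, 22 in normoxia and 8 in hypoxia exceeded the 90th percentile of the olfactory receptor differences. In bulk tissue, fewer cells of a type and less RNA per cell cannot be told apart.

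Anpep, aminopeptidase N of pericytes and also of myeloid cells, differed most in both comparisons. It read 6.74, 6.69 and 6.64 in hypoxic tumour regions, against 4.74 to 5.11 (median 4.85) in the 6 hypoxic cultures. In normoxia it read 6.49, 6.18 and 7.08 in tumour regions, against 4.93 to 5.12 (median 5.004) in cultures. All 6 tumour values lie above all 12 culture values, and the differences were 1.81 ± 0.15 (SE, adjusted p = 9.73e-08) in hypoxia and 1.56 ± 0.15 (adjusted p = 7.53e-07) in normoxia, both from limma.

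The 5 endothelial junction and surface genes were all higher in both comparisons. Icam2, an adhesion molecule of endothelium that leukocytes and platelets also carry, read 6.28, 5.91 and 6.60 in normoxic regions, against 4.67 to 5.07 (median 4.78) in normoxic cultures, a difference of 1.43 ± 0.12 (limma adjusted p = 2.89e-07). In hypoxic regions it read 5.83, 5.81 and 5.87, against 4.70 to 4.97 (median 4.89) in hypoxic cultures, a difference of 0.96 ± 0.12. The tumour and culture values did not overlap in either comparison. Of these values of Icam2, only that of the normoxic region of tumour 3 lay above the floor of its array. Cdh5 read 7.26, 6.61 and 6.89 in normoxic regions, against 5.74 to 6.07 (median 5.99) in cultures, and differed by 0.82 ± 0.16 in hypoxia and 0.95 ± 0.16 in normoxia. Cldn5, the claudin of endothelial tight junctions, differed by 0.82 ± 0.12 in hypoxia and 0.89 ± 0.12 in normoxia, and Esam by 1.01 ± 0.15 in hypoxia and 0.66 ± 0.15 in normoxia. Emcn (endomucin, a sialomucin of capillaries and veins) was higher by 0.83 ± 0.12 in hypoxia and 0.67 ± 0.12 in normoxia, at tumour levels of 4.69 to 5.17 that are below the floor.

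Among the receptors, Flt1, a VEGF receptor that also binds placental growth factor, read 6.65, 6.31 and 7.15 in normoxic regions, against 5.50 to 5.74 (median 5.64) in cultures, and was higher by 1.07 ± 0.18 (limma adjusted p = 0.000145). In hypoxia its difference was 0.76 ± 0.18. Tek, Tie1, Robo4 and Calcrl lay below the floor on all 18 arrays, so neither side of their differences was above the floor. The angiopoietin receptor Tek differed by 0.55 ± 0.18 in hypoxia and 0.66 ± 0.18 in normoxia and its relative Tie1 by 0.61 ± 0.13 in hypoxia and 0.66 ± 0.13 in normoxia. Robo4, a guidance receptor of endothelium, was higher by 0.83 ± 0.11 in hypoxia and 0.67 ± 0.11 in normoxia, and Calcrl, the receptor part of the adrenomedullin receptor, by 0.40 ± 0.09 in hypoxia and 0.61 ± 0.09 in normoxia. Its partner Ramp2 did not pass in either comparison (-0.30 ± 0.22, adjusted p = 0.247, in normoxia), nor did Flt4 (-0.10 ± 0.14, adjusted p = 0.538).

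Plvap, the protein of the diaphragms that span endothelial fenestrae and caveolae, read 6.12, 6.41 and 6.59 in hypoxic regions, against 5.02 to 5.32 (median 5.17) in hypoxic cultures. It read 6.79, 6.29 and 5.95 in normoxic regions, against 4.87 to 5.37 (median 5.25) in normoxic cultures. No tumour value overlaps a culture value, and the differences were 1.19 ± 0.16 in hypoxia and 1.14 ± 0.16 in normoxia. Of these values of Plvap, only that of the normoxic region of tumour 1 lay above the floor of its array. The culture values were all below it. Nos3, above the 95th but not the 99th percentile floor on all culture arrays, was higher by 0.91 ± 0.09 in hypoxia and 0.63 ± 0.09 in normoxia, and Egfl7 by 0.45 ± 0.15 in hypoxia and 0.39 ± 0.15 in normoxia. The SoxF genes and Erg passed as higher in both comparisons, but Sox17, Sox18 and Erg lay below the floor on all 18 arrays and Sox7 was above it on 1 of 6 tumour arrays. Sox18 gave 0.76 ± 0.12 in normoxia, and in hypoxia none of these 4 genes exceeded the 90th percentile of the olfactory receptor differences. Ets1 passed in normoxic regions (0.53 ± 0.12, limma adjusted p = 0.00168), with -0.15 ± 0.12 (adjusted p = 0.279) in hypoxic regions. Ets1 is the member with the widest gap between its 2 differences.

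Of the 14 mural genes, 11 were higher and Des was lower in normoxic regions, and 10 were higher in hypoxic regions. Kcnj8, the pore subunit of the vascular ATP-sensitive potassium channel, read 6.81, 6.60 and 6.76 in hypoxic regions, against 5.54 to 5.77 (median 5.66) in cultures, a difference of 1.06 ± 0.09 (limma adjusted p = 1.51e-07). In normoxia it differed by 0.87 ± 0.09. Its channel partner Abcc9, below the floor on all 18 arrays, differed by 0.64 ± 0.11 in hypoxia and 0.43 ± 0.11 in normoxia. Rgs5, a regulator of G-protein signalling typical of pericytes, read 6.87, 6.32 and 6.30 in hypoxic regions, against 5.29 to 5.69 (median 5.51) in cultures, with differences of 1.00 ± 0.15 in hypoxia and 0.71 ± 0.15 in normoxia. Notch3 was higher by 0.93 ± 0.11 in hypoxia and 0.67 ± 0.11 in normoxia, and its transcriptional target Heyl by 0.68 ± 0.13 in hypoxia and 0.42 ± 0.13 in normoxia.

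Cnn1 (calponin, which binds actin in smooth muscle) read 6.85, 6.74 and 6.65 in hypoxic regions, against 5.36 to 6.15 (median 5.72) in cultures, and was higher by 1.01 ± 0.14 in hypoxia and 0.82 ± 0.14 in normoxia. Tagln, Myh11 (smooth muscle myosin) and Lmod1 (leiomodin, a nucleator of actin) were higher in both comparisons, by 0.37 to 0.64. Des read 6.02, 5.82 and 6.17 in normoxic regions, against 6.07 to 6.76 (median 6.52) in cultures, a difference of -0.51 ± 0.21 (limma adjusted p = 0.0409), with overlapping groups. With the separate array weights the calls of Des, Egfl7, Heyl and Myh11 in normoxia were lost, that of Des at an adjusted p of 0.158. The call of Des was also lost in 6 of 9 fits without 1 array (adjusted p of 0.0677 to 0.155). Pdgfrb and Cspg4 did not pass in either comparison, with 95% intervals of -0.42 to 0.82 and -0.35 to 0.28 in normoxia.

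**Figure D2:**
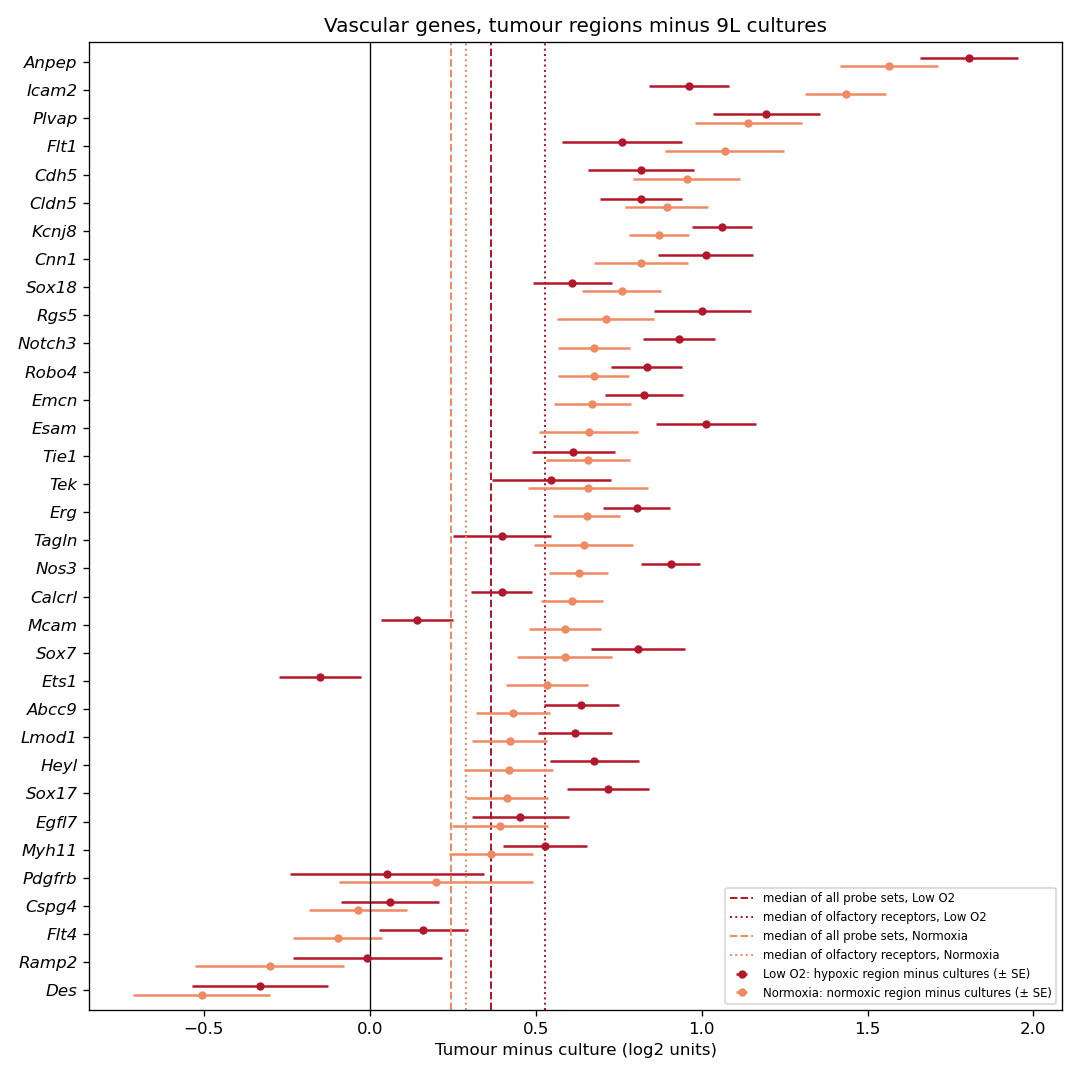
Tumour minus culture difference of each gene in log2 units (points, with SE bars), for hypoxic regions against hypoxic cultures (dark red) and normoxic regions against normoxic cultures (orange). Dashed and dotted vertical lines mark the medians of all probe sets (0.37 and 0.24) and of the olfactory receptors (0.53 and 0.29); Anpep lies farthest right in both comparisons and Des farthest left.

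These counts depended on how the arrays were scaled. The 34 genes split into 18 higher and 3 lower in normoxia with each array centred on its median, and into 19 higher and 2 lower in hypoxia. Quantile normalization gave 18 higher and 2 lower in normoxia, and 18 higher and 1 lower in hypoxia. With the arrays centred on the olfactory receptors the split was 13 higher and 3 lower in normoxia and 10 higher and 3 lower in hypoxia, and with cyclic loess 14 higher and 2 lower in normoxia and 8 higher and 2 lower in hypoxia. Over all 27363 probe sets, calls in either direction fell too. In normoxia they were 17601 as deposited, 12858 with median centring, 10489 with quantile normalization, 11533 with olfactory receptor centring and 10082 with cyclic loess. In hypoxia they were 20789, 15987, 13646, 13324 and 11682 in the same order. Shares higher and lower under each scaling are not given here, so these counts of vascular genes cannot be called high or low. The genes called higher in all 18 alternatives run for a comparison were 10 in normoxia (Cdh5, Cldn5, Icam2, Flt1, Plvap, Nos3, Sox18, Kcnj8, Anpep, Cnn1) and 7 in hypoxia (Esam, Plvap, Nos3, Notch3, Kcnj8, Anpep, Cnn1). Plvap, Nos3, Kcnj8, Anpep and Cnn1 were in both sets, 5 genes in all. The share of all probe sets that stayed called in all 18 alternatives is not given here, so these counts cannot be called high or low. The smallest difference of Anpep in any of these alternatives was 1.10 in normoxia and 1.17 in hypoxia, and that of Plvap was 0.67 in normoxia and 0.56 in hypoxia.

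Upstream sequences are shown for the 5 genes with the largest normoxic difference among the 20 members that have an entry in the RefSeq promoter table (build GRCr8). Each line gives the 250 bases before the annotated start, 5′ to 3′ along the gene's strand, and capitals mark the ETS core AGGAAG or CGGAAG on either strand (CTTCCT or CTTCCG), shown because Erg and Ets1 are members. The positions are chr1:143195102-143195351, minus strand, for Anpep, chr16:18231280-18231529, minus strand, for Plvap, chr12:12333180-12333429, plus strand, for Flt1, chr11:95718599-95718848, minus strand, for Cldn5, and chr4:177246549-177246798, minus strand, for Kcnj8.
Anpep: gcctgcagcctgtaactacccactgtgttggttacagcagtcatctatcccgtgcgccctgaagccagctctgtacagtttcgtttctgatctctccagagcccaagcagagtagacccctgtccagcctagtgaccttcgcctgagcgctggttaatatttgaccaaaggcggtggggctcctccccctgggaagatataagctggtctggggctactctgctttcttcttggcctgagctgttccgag
Plvap: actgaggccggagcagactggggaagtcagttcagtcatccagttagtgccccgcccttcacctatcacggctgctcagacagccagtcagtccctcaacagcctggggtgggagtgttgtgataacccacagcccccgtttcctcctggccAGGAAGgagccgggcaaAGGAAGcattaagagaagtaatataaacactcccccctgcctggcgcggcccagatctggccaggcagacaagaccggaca
Flt1: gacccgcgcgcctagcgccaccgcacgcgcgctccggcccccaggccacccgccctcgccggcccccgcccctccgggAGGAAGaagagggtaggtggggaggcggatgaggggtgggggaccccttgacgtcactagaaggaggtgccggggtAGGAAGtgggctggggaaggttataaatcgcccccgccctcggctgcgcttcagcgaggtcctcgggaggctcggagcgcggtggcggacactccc
Cldn5: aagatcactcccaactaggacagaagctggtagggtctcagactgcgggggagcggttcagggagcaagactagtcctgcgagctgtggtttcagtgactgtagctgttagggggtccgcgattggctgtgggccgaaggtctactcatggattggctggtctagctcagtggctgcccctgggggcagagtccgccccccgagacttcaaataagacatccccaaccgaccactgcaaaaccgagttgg
Kcnj8: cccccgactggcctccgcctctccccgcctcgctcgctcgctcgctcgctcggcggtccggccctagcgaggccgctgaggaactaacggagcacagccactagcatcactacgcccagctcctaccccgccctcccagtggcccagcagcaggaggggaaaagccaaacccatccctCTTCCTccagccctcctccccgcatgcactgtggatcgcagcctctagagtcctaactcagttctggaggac

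Plvap and Flt1 each hold 2 such cores, 98 and 81 bases before the start in Plvap and 172 and 96 bases before it in Flt1, and Kcnj8 holds 1, 72 bases before it. Those of Anpep and Cldn5 hold none in this window. Over the members with an entry, the core was found in 9 of 11 endothelial genes (81.8%) and 2 of 9 mural genes (22.2%), against 39.4% of all 33469 promoters of the table in the same window. The endothelial genes with a core were Emcn, Egfl7, Nos3, Tie1, Robo4, Flt4, Erg, Flt1 and Plvap. The hypoxia response core ACGTG or GCGTG, on either strand, was found in 6 of the 20 members (Abcc9, Heyl, Notch3, Cnn1, Robo4, Flt1; 30.0%), against 36.7% of all promoters. Members were counted by gene, with a core in any entry of the gene, and all promoters by entry, so these shares differ in unit. A match is a description of the letters and not of binding.

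Other genes of the same cell types, not among the 34, were read from lists. Of 16 further endothelial genes, all 16 were higher in normoxic regions and 15 in hypoxic regions, with medians of 0.71 in normoxia and 0.72 in hypoxia. However, 8 of the 16 lay below the floor on all 6 tumour arrays. Aqp1 (a water channel of endothelium) differed by 2.71 ± 0.42 in hypoxia and 2.39 ± 0.42 in normoxia. In cultures its group means were 6.98 to 7.38, above the culture floor, so 9L cells alone gave a signal for it. Ece1 (endothelin-converting enzyme) differed by 0.97 ± 0.11 in hypoxia and 0.97 ± 0.11 in normoxia, and Cd93 did not pass in hypoxia (-0.27 ± 0.13, limma adjusted p = 0.0647). Of 11 further smooth muscle and pericyte genes, 9 were higher and 1 lower in normoxia, and 8 higher and 1 lower in hypoxia. Again, 3 of the 11 lay below the floor on all 6 tumour arrays. Mylk (myosin light chain kinase) differed by 0.75 ± 0.09 in hypoxia and 0.66 ± 0.09 in normoxia, and the lower gene in both comparisons was Tpm1 (a tropomyosin, -1.01 ± 0.14 in hypoxia and -1.08 ± 0.14 in normoxia). Of 25 ligands, partners and signalling genes, 13 were higher and 2 lower in normoxia, and 17 higher and 2 lower in hypoxia. Here 6 of the 25 lay below the floor on all 6 tumour arrays. Nrp1, a VEGF co-receptor, was higher by 1.06 ± 0.12 in normoxia, Acvrl1 (a BMP receptor of endothelium) by 0.86 ± 0.11, Dll4 (a Notch ligand of sprouting tips) by 0.81 ± 0.11 and Notch1 by 0.91 ± 0.13. Vegfc, the ligand of Flt4, was lower, with differences of -1.19 ± 0.13 in hypoxia and -1.13 ± 0.13 in normoxia.

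Genes of other cell types were also higher in tumours. All 4 platelet genes were higher in both comparisons, as were all 6 adipocyte genes and 8 of 9 skeletal muscle genes, with normoxic medians of 0.72, 0.56 and 0.45. Of the 9 skeletal muscle genes, 6 stayed below the floor on all tumour arrays, as did 3 of the 6 adipocyte genes and 2 of the 8 fibroblast genes. The 11 macrophage genes were higher by a median of 2.31 in normoxia and 2.16 in hypoxia and the 7 T and NK cell genes by 1.64 in normoxia and 1.23 in hypoxia, and all of them passed in both. Of the 8 fibroblast genes, 8 passed in normoxia (median 1.01) and 7 in hypoxia (median 0.74). The mean level of the macrophage genes was 6.78 to 8.10 on tumour arrays and 5.15 to 5.34 on culture arrays, that of the T and NK cell genes 6.24 to 8.10 on tumour arrays and 5.23 to 5.53 on culture arrays, and that of the platelet genes 6.69 to 6.94 on tumour arrays and 5.80 to 6.25 on culture arrays. Anpep and Icam2 are also known from leukocytes, and the part of those cells in their signal was not tested.

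Hypoxic and normoxic regions of the same tumours were then compared, to see whether vascular genes differed with oxygen inside the tumour. None of the 34 genes passed the test, and neither did any of the 27363 probe sets in the limma fit with the tumour as block (0% higher and 0% lower, with 1408 probe sets called when all 18 arrays were fitted together). At an unadjusted p of at most 0.05, 2 of the 34 genes passed, against 9.12% of all probe sets. The median difference was 0.10 over the 34 genes (0.05 endothelial, 0.19 mural), 0.10 over all probe sets and 0.16 over the olfactory receptors. In all 3 tumours, 8 genes were higher in the hypoxic region and 8 were lower, against 22.9% and 11% of all probe sets.

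Ets1 had the smallest p. It read 7.46, 7.62 and 8.13 in the EF5-positive regions of tumours 1, 2 and 3, against 8.37, 8.44 and 8.38 in the normoxic regions. The groups do not overlap, the differences within tumours were -0.92, -0.81 and -0.24, and the fitted difference was -0.66 ± 0.21 (SE, unadjusted p = 0.0209, adjusted p = 0.446). In cultures Ets1 lay at 7.66 to 8.09, near the hypoxic regions and below the normoxic ones. Fitted together with the cultures in 1 model, with the culture numbers as pairs, the same difference passed (limma adjusted p = 0.0299). That model also takes its spread from cultures, which vary less than tumours, so it can understate the spread of tumours. Without tumour 3, the difference between regions was -0.87.

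Des was the other gene with an unadjusted p under 0.05, in the opposite direction. It read 6.65, 6.26 and 6.72 in hypoxic regions, against 6.02, 5.82 and 6.17 in normoxic regions. It was higher in the hypoxic region of all 3 tumours, by 0.63, 0.44 and 0.54, with a fitted difference of 0.54 ± 0.18 (limma adjusted p = 0.463). The smooth muscle gene Cnn1 (0.30, 0.37 and 0.38 in tumours 1, 2 and 3) and the junction gene Esam (0.16, 0.32 and 0.69) were also higher in all 3 hypoxic regions, with fitted differences of 0.35 ± 0.18 and 0.39 ± 0.20 and adjusted p = 0.616 for both. Flt4 gave 0.38 ± 0.22, higher in 2 of 3 tumours. Heyl, Robo4, Kcnj8 and Erg completed the genes that were higher in all 3 tumours together with Nos3, whose differences were 0.09, 0.00 and 0.32.

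Lower values in all 3 hypoxic regions were found for Ets1, Icam2, Mcam, Tagln, Flt1, Calcrl, Cldn5 and Cdh5. Icam2 read 5.83, 5.81 and 5.87 in hypoxic regions, against 6.28, 5.91 and 6.60 in normoxic regions, and Mcam 6.86, 7.02 and 6.97, against 7.43, 7.06 and 7.57. The groups do not overlap for either gene, and the fitted differences were -0.43 ± 0.21 (limma adjusted p = 0.604) and -0.40 ± 0.21 (adjusted p = 0.616). Of the tumour values of Icam2, only that of the normoxic region of tumour 3 lay above the floor. Without tumour 3, whose normoxic array stood apart, Icam2 differed by -0.28, Mcam by -0.31 and Des by 0.53. In tumour 2 the differences of Icam2 and Mcam were -0.10 and -0.04. Flt1 was lower by nearly the same amount in each tumour (-0.26, -0.28 and -0.25), with a fitted difference of -0.26 ± 0.18 and an interval of -0.70 to 0.17. Tagln gave -0.32 ± 0.19 and Cdh5 -0.15 ± 0.18, and neither passed.

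Other genes had no direction shared by the 3 tumours. Plvap differed by -0.67, 0.12 and 0.64 in tumours 1, 2 and 3, with a fitted difference of 0.03 ± 0.28 and a 95% interval of -0.65 to 0.71. Tek differed by 0.47, -0.03 and -0.77, and the low value of tumour 3 comes from a normoxic level of 5.37 there, against 4.22 and 4.56 in tumours 1 and 2. Without tumour 3, Tek gave 0.22. Rgs5 gave 0.18 ± 0.21 and Pdgfrb -0.05 ± 0.19. Plvap and Tie1, both slightly above 0, were below 0 under each of the 4 other scalings.

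Marker lists of other cells were read in the same regions, and none of their genes passed in the fit of the 6 tumour arrays. The mean level of the 11 macrophage genes was 7.01, 7.43 and 6.78 in the hypoxic region of tumours 1, 2 and 3, against 7.52, 7.71 and 8.10 in the normoxic regions, and that of the 7 T and NK cell genes was 6.24, 6.64 and 6.45, against 6.74, 6.83 and 8.10. Both means were lower in the hypoxic region of each tumour, most in tumour 3. Some listed genes went the other way, with fitted differences of 0.13 for Cd68, 0.10 for C1qb, 0.11 for Cd163 and 0.25 for Gzmb. On every tumour array, 2 of the 11 macrophage genes and 1 of the 7 T and NK cell genes were below the floor. Icam2 and Ets1, which are known from leukocytes as well, were lower in the same regions, and the part of these cells in their difference was not tested. The mean level of the 34 genes differed less, at 6.43, 6.34 and 6.43 in hypoxic regions, against 6.37, 6.34 and 6.34 in normoxic regions.

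**Figure D3:**
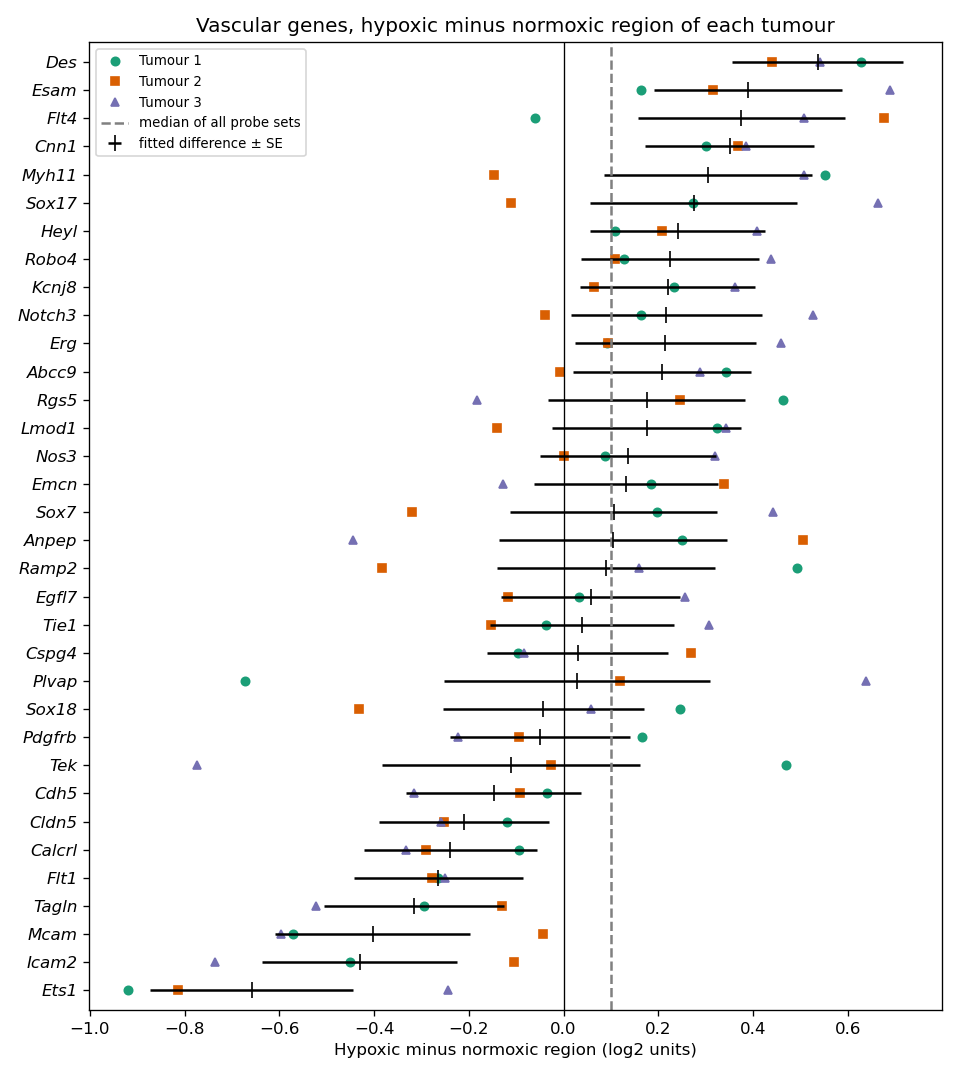
Hypoxic minus normoxic difference of each gene in log2 units in tumours 1 (circles), 2 (squares) and 3 (triangles), with the fitted difference and its SE in black. The dashed line is the median of all probe sets (0.10); Des lies at the top with all 3 tumours right of 0, and Ets1 at the bottom with all 3 left of 0.

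**Figure D4:**
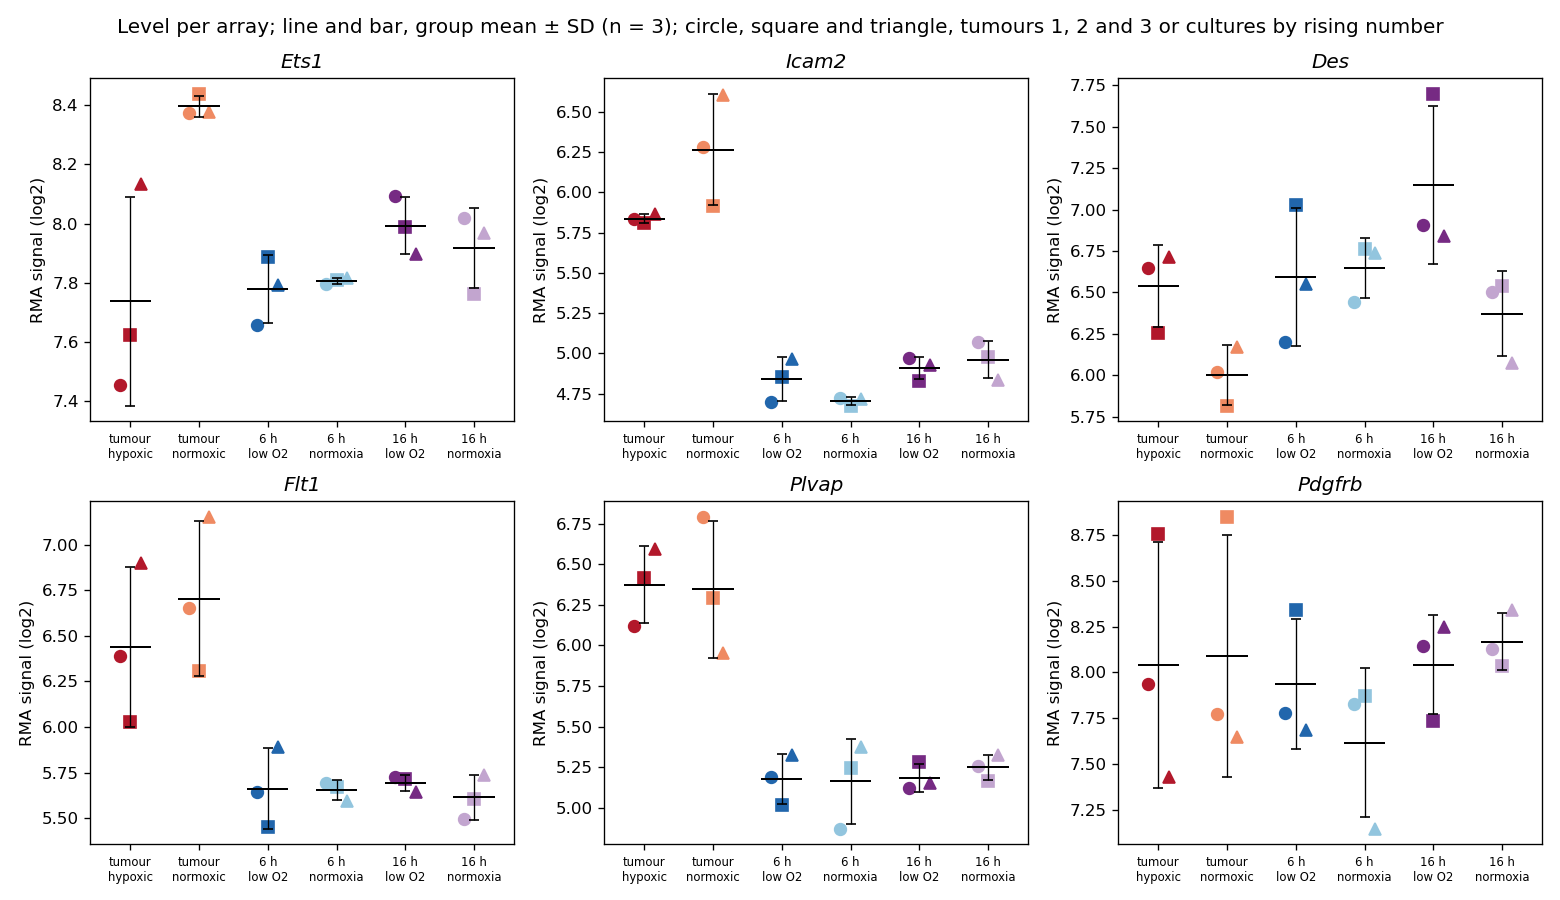
Log2 signal on every array for Ets1, Icam2, Des, Flt1, Plvap and Pdgfrb in the 6 groups, with the mean and SD of 3 arrays. Ets1 and Icam2 are lower in hypoxic than in normoxic tumour regions, Des is higher there and highest in the 16 h cultures at low oxygen, and both Pdgfrb values of tumour 2 (squares) lie above those of the other tumours.

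Of the further endothelial genes, none of 16 passed between regions, and Cd93 was the lowest (-0.37 ± 0.19). None of the 11 smooth muscle and pericyte genes passed either, with Tpm2 (a tropomyosin) at 0.49 ± 0.22. Among the 25 ligands, partners and signalling genes, 5 had an unadjusted p of at most 0.05 and none passed after adjustment. Vegfa, the main endothelial growth factor, differed by 1.75 ± 0.22 (limma adjusted p = 0.145), Pgf (placental growth factor) by 1.91 ± 0.34 and Adm (adrenomedullin, the ligand of Calcrl with Ramp2) by 1.55 ± 0.41. Fitted with all 18 arrays and the pairs as block, Vegfa passed (limma adjusted p = 0.000847) and so did Pgf (0.00712). Both passed without tumour 1 (adjusted p = 0.00503 for Vegfa and 0.0107 for Pgf). The fit of all 18 arrays can understate the spread of tumours, since cultures vary less. Angpt2, a ligand of Tek, differed by -0.15 ± 0.18.

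For 6 of the 34 genes (17.6%), both regions of 1 tumour lay above the other 4 tumour arrays, a share near that of all probe sets (18.5%). These were Cdh5, Tie1 and Egfl7 in tumour 1, Pdgfrb in tumour 2, and Flt1 and Tagln in tumour 3. Pdgfrb varied most, with means over both regions of 7.86, 8.80 and 7.54 in tumours 1, 2 and 3, a range of 1.26. The mean size of its difference between regions was 0.16. Flt1 had tumour means of 6.52, 6.17 and 7.03, and Cdh5 had 7.24, 6.57 and 6.73. With 1 array per region and tumour, a difference between animals and one between captures cannot be told apart.

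Cultures were then used to ask whether low oxygen alone changes these genes in 9L cells. After 6 h at 0.2% oxygen, none of the 34 genes passed, against 0.183% of all probe sets higher and 0.00731% lower, and none had an unadjusted p of at most 0.05, against 5.14% of all probe sets. The differences ran from -0.16 to 0.32, with a median of 0.01. The largest was that of Pdgfrb, which read 7.78, 8.34 and 7.69 at 0.2% oxygen, against 7.83, 7.87 and 7.15 at about 20% (0.32 ± 0.21, limma adjusted p = 0.984). The groups overlap. Kcnj8 gave 0.18 ± 0.10, Icam2 0.14 ± 0.10, Erg 0.13 ± 0.10 and Myh11 0.13 ± 0.11. Kcnj8, Icam2 and Erg are among the 16 of the 34 genes below the floor on all 12 culture arrays. For those 16, a response of 9L cells could hardly be read.

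After 16 h, again none of the 34 passed, against 0.603% of all probe sets higher and 0.102% lower, and 2 had an unadjusted p of at most 0.05, against 8.21%. Des read 6.90, 7.70 and 6.84 at 0.2% oxygen, against 6.50, 6.54 and 6.07 at about 20%. All 3 values at low oxygen lie above all 3 at normoxia, and the difference was 0.78 ± 0.24 (unadjusted p = 0.00562, limma adjusted p = 0.248). Blocked on the culture numbers, Des passed (limma adjusted p = 0.0475), but the labels do not state that these numbers pair the cultures. Des also had the highest hypoxic minus normoxic difference of the 34 genes in tumours, which did not pass. Nos3 read 6.33, 6.35 and 6.32 at 0.2% oxygen, against 6.68, 6.54 and 6.56, without overlap (-0.26 ± 0.10, adjusted p = 0.44). Flt4 gave 0.24 ± 0.14, Anpep -0.18 ± 0.11 and Cldn5 -0.21 ± 0.14, the last 2 of them below the floor on all culture arrays.

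Ligands of vascular receptors did change in these cultures. Pgf was higher by 2.03 ± 0.20 after 6 h (limma adjusted p = 0.000324) and 2.62 ± 0.20 after 16 h (2.4e-05), and Adm by 1.79 ± 0.31 (0.0327) and 2.22 ± 0.31 (0.00334). They were the only 2 of the 25 genes of that list to pass in this fit. The 6 h call of Adm was lost in 8 of 12 fits without 1 array (adjusted p of 0.057 to 0.216), with quantile normalization (0.0562), with trended and robust variance (0.0988) and with all 18 arrays in 1 fit (0.764), which also ended its 16 h call (0.0928). Vegfa differed by 1.04 ± 0.31 and 1.25 ± 0.31 after 6 h and 16 h and did not pass. With the culture block it passed at both times (adjusted p = 0.0125 at 6 h and 0.0021 at 16 h), and at 16 h also without normoxic culture 28 (adjusted p = 0.0111). The difference between the 16 h and the 6 h response passed for none of the 34 genes (smallest adjusted p = 0.982), nor for any probe set (0% in each direction). Des gave 0.83 ± 0.33 there, at an unadjusted p of 0.0267, and 4.36% of all probe sets had one of at most 0.05.

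**Figure D5:**
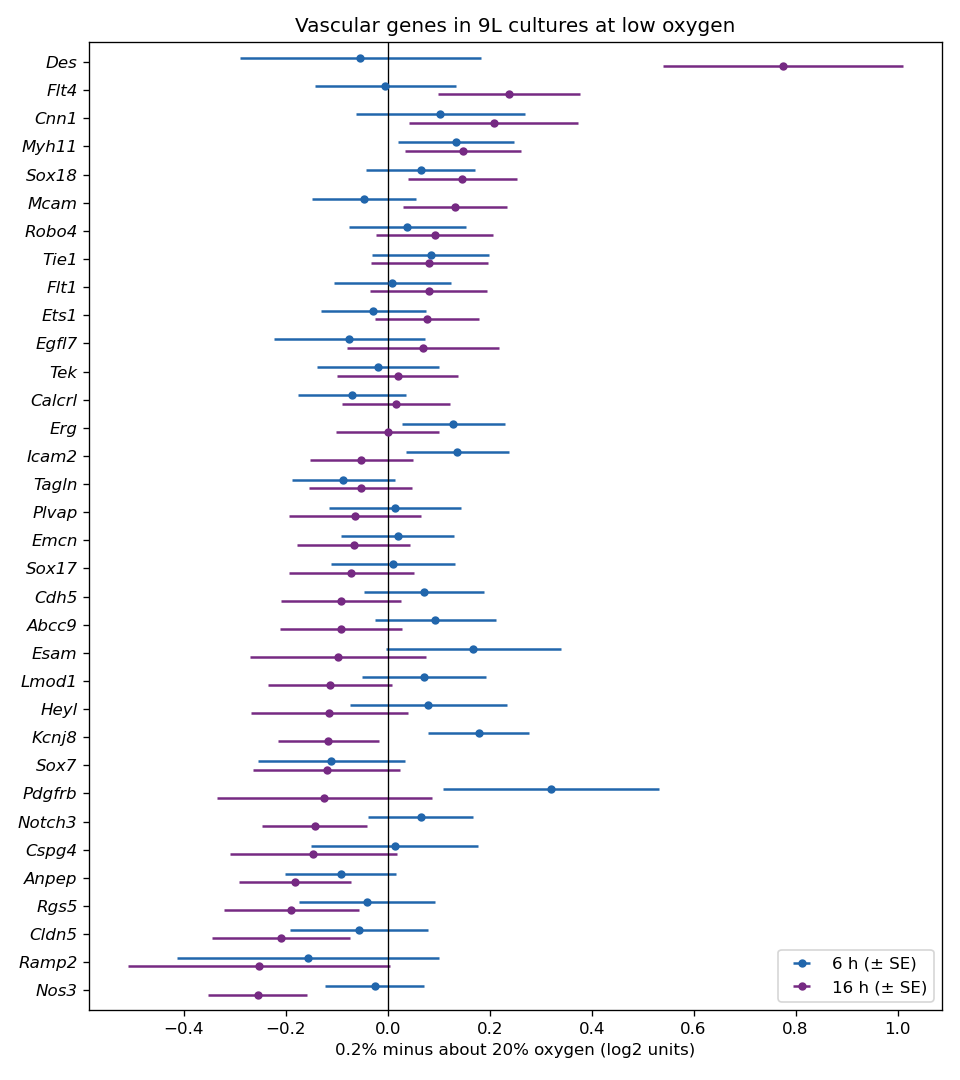
Difference of each gene between 0.2% and about 20% oxygen in 9L cultures, in log2 units with SE bars, after 6 h (blue) and 16 h (purple). All 34 genes lie between -0.26 and 0.32 except Des at 16 h, at 0.78.

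The difference between the tumour and the culture response (hypoxic minus normoxic in tumours, minus the mean of both culture responses) passed for none of the 34 genes, against 0.179% of all probe sets higher and 0.987% lower. At an unadjusted p of at most 0.05, 3 genes passed, against 16.6% of all probe sets. Ets1 gave -0.68 ± 0.18 (limma adjusted p = 0.0994), Icam2 -0.47 ± 0.17 (adjusted p = 0.206) and Mcam -0.45 ± 0.16 (adjusted p = 0.21). Here too the spread comes partly from cultures, which vary less, so these errors and p-values can understate the spread of tumours. The fit also pairs cultures by number, which the labels do not state. Ets1 passed without tumour 3 (-0.89, adjusted p = 0.0188) and with arrays centred on the olfactory receptors (adjusted p = 0.0359), and Mcam without tumour 2 (adjusted p = 0.0361).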

How the data were processed

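RNA from laser-captured tumour regions and from cultures was measured on 18 Affymetrix Rat Gene 1.0 ST arrays after NuGEN amplification, per the labels' protocols. The deposited values are log2 signals. The submitters' processing notes name RMA and Partek 6.5b, and it is unknown here if RMA was run on all arrays at once. They were analysed as deposited, with no pseudocount. Gene symbols come from the platform annotation, and only probe sets with 1 symbol were named. The members and the gene lists were chosen with earlier results of these data known.

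Differences were tested with limma 3.58.1 (R 4.3.3; lmFit and eBayes, two-sided), adjusted by Benjamini-Hochberg over 27363 probe sets, with a threshold of 0.05. Regions were compared with the tumour as block over 6 arrays, cultures over 12 arrays in 4 groups, tumours against cultures over 18 arrays, and the responses over 18 arrays with pairs as blocks. Tests on simulated data showed excess calls in the tumour against culture fits, where tumour arrays vary more than cultures, so counts with separate weights are also given. The arrays have no detection call, so the floor was the 95th percentile of olfactory receptor probe sets. Same-numbered cultures deviated together (6 h cultures: correlations of 0.125, 0.193, 0.192. 16 h cultures: 0.130, 0.188, 0.307), and the numbers come from the labels, so blocked values are given where they change a call. Regions of a tumour share the animal (0.128, 0.0357 and 0.273). Genes with full values were the up to 12 called with the largest tumour minus culture change, the 8 with the smallest p between tumour regions, 5 in each culture comparison and interaction, Cdh5, Flt1, Tek, Plvap, Rgs5 and Pdgfrb between regions, and up to 5 called genes of the ligand list beside Vegfa, Car9, Angpt2 and Pgf. Other genes were named after their values were seen. Alternatives were other scalings, filters, variance priors, blocks, weights and leaving out each array or pair. Olfactory receptor centring and cyclic loess were chosen after seeing the data. Promoter sequences are from RefSeq.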

Additional observations from a re-analysis of the deposited data

How the results depend on the processing

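The probe set kept for Abcc9, the filter on dim probe sets and the variance prior changed no count of called vascular genes by over 1.5 times. Among the 1741 named-gene values recomputed, 1638 kept their direction and side of the threshold, 47 lost the call, 18 gained one and 38 changed sign. The count of called vascular genes between tumour regions was 1 (Ets1) with all 18 arrays and the pairs as replicate block, against 0, and in cultures at 16 h it was 1 (Des) with the culture number as replicate block. Other blocked fits moved no other count of called vascular genes by over 1.5 times. Tumour minus culture counts were 16 in normoxia with olfactory receptor centring and 16 with cyclic loess, against 30, and 13 and 10 in hypoxia, against 27. Leaving out 1 array gave 25 to 30 in normoxia and 26 to 27 in hypoxia, and 0 to 1 for the tumour minus culture response, where olfactory receptor centring also gave 1. With the 99th percentile as floor, 4 genes counted as expressed by 9L cells. Called probe sets between regions numbered 22 with trended and robust variance, 1 without the dimmest 25% of probe sets, 1408 with all 18 arrays, and 0 to 563 (without tumour 1) with a tumour left out. At 6 h they were 6 with all 18 arrays, against 52 (27 to 69 with an array left out), and at 16 h 33, against 193 (74 to 248). For the response they were 638 with quantile normalization, against 319 (44 to 1365 with a pair left out). For tumour against culture they were 10489, 11533 and 10082 in normoxia with quantile normalization, olfactory receptor centring and cyclic loess, against 17601, and 13646, 13324 and 11682 in hypoxia, against 20789. Some named values changed sign, and the cause was not tested. Between regions, Plvap gave -0.018 with median centring, -0.058 with quantile normalization, -0.17 with olfactory receptor centring and -0.14 with cyclic loess, and Rgs5 gave -0.022 with olfactory receptor centring. With 1 tumour, array or pair left out, Tek ran over -0.40 to 0.22 between regions, Plvap ran over -0.28 to 0.38 between regions, Pdgfrb ran over -0.16 to 0.036 between regions, Angpt2 ran over -0.24 to 0.0047 in cultures at 16 h and Vegfa ran over -0.11 to 0.62 in the 16 h minus 6 h response. Likewise, Car9 ran over -0.33 to 0.12 in the 16 h minus 6 h response, Vegfa ran over -0.086 to 0.37 in normoxic tumour minus culture, Car9 ran over -0.47 to 0.091 in normoxic tumour minus culture, Pgf ran over -0.034 to 0.61 in normoxic tumour minus culture, Car9 ran over -0.045 to 0.34 in hypoxic tumour minus culture, Pgf ran over -0.18 to 0.074 in hypoxic tumour minus culture and Pgf ran over -0.78 to 0.071 in the tumour minus culture response. Car9 gave 0.014 with median centring in the 16 h minus 6 h response, 0.14 with quantile normalization and 0.42 with cyclic loess in normoxic tumour minus culture, and -0.25 with median centring and -0.40 with olfactory receptor centring in hypoxic tumour minus culture. In normoxic tumour minus culture, Vegfa gave -0.15 with median centring and -0.18 with olfactory receptor centring. In hypoxic tumour minus culture, Angpt2 gave -0.024, -0.18 and -0.082 with median centring, olfactory receptor centring and cyclic loess, and Pgf 0.64 with quantile normalization, which gave 0.45 for Pgf in the tumour minus culture response. The number of arrays, the low signal of most of these genes and the absence of detection calls limit what could be called.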
